A study of Mus musculus with 3 samples.

Results

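In single-nucleus libraries of whole mouse corneas, 646 of 315471 droplet barcodes carried RNA of a set of solute transporter and immune genes led by Slc5a1 and Cd274, far above the level of the other barcodes of their library. They were chosen by 9 genes: Slc5a1, Slc1a1, Plekhs1, Frk, Slc6a14, Slc5a8, Slfn4, Cd274 and Cxcl2. A barcode with at least 500 genes and at most 5% mitochondrial UMIs (unique molecular identifiers, 1 per captured RNA molecule) was a member if it held UMIs of at least 4 of the 9. Their summed share of its UMIs also had to be at least 8 times their share over all barcodes of that library. Members numbered 133 in the wild-type library (WT), 4 in the untreated library of mice lacking Aire (KO) and 509 in the library of such mice given phosphate-buffered saline (KO + PBS).

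Single-nucleus RNA was sequenced from snap-frozen corneas of 5 mice pooled into each library, with 1 library per group. Per the labels, the mice were 7 weeks old: WT mice without treatment, Aire knockout mice without treatment, and Aire knockout mice that received PBS for 14 days. The series text gives 6 weeks and treatment day 7 instead, and it names a lacripep arm that is not analysed here. The product of Aire makes thymic cells show tissue antigens to developing T cells; the series text names the knockout as a model of dry eye disease. With 1 library per group there is no replicate check and no p-value. All intervals are exact 95% intervals that cover counting error only, and a difference between libraries cannot be told apart from a difference between genotypes, treatments, dissections or library preparations.

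The corneal surface is a stratified epithelium. Basal cells divide, and their daughters move outward, flatten, seal themselves with tight junctions and carry membrane mucins toward the tear film. Secondary active transporters such as SLC5A1 (the sodium-glucose cotransporter SGLT1), SLC1A1 (glutamate and aspartate), SLC6A14 (neutral and cationic amino acids) and SLC5A8 (lactate and other monocarboxylates) move solutes across epithelial membranes with the help of ion gradients. CD274, or PD-L1, is the ligand of the checkpoint receptor PD-1 on T cells, and CXCL2 is a chemokine that attracts neutrophils. Frk encodes a Src-related tyrosine kinase of epithelial cells, Plekhs1 a protein with a pleckstrin homology domain, and Slfn4 a member of the Schlafen family known from myeloid cells and interferon responses.

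The WT matrix listed 96587 barcodes with 256852883 UMIs, that of KO 107031 with 352627863 and that of KO + PBS 114357 with 178988562. After the gene and mitochondrial limits 96547, 107025 and 111899 barcodes were left. How barcodes were filtered before deposit is not given in the sources used here, so a barcode may not be a single nucleus, and counts and shares are of barcodes. Aire itself had 15, 27 and 66 UMIs over those barcodes and none in any member, so it gave no usable check of the genotype in corneal RNA. Krt12, the keratin of corneal epithelium, had UMIs in nearly all barcodes. At least 3 immune-cell markers were found in 6.63% of the other WT barcodes, 96.7% of those in KO and 50.8% of those in KO + PBS. How much of this RNA came from other cells was not tested. Pairs of libraries shared 2833 to 3379 barcode sequences, and no shared sequence was a member in both.

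Members made up 0.138% of the passing barcodes in WT (0.115 to 0.163), 0.00374% in KO (0.00102 to 0.00957) and 0.455% in KO + PBS (0.416 to 0.496). These shares follow from the rule and were not compared. The 9 genes together stood at 235 CPM in the whole WT library (UMIs of the genes in 1000000 UMIs), 509 in KO and 558 in KO + PBS, so a barcode had to give 0.188%, 0.407% and 0.447% of its UMIs to them. In KO 6147 passing barcodes held at least 4 of the 9 genes, against 622 in WT and 1593 in KO + PBS, but 4 of those in KO passed the share threshold. The lowest member stood at 8.15 times the library share in WT and the highest barcode left out at 7.99 times. The same values were 8.02 and 7.51 times in KO and 8.03 and 7.9995 times in KO + PBS. Because 4 barcodes give almost no precision, the KO library is described mainly through the 469 barcodes that reached 4 times the library share; at that threshold WT held 381 and KO + PBS 1105.

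Members had a median of 2891 UMIs in WT against 2261 in the other barcodes, 2288.5 against 2980 in KO and 2491 against 1444 in KO + PBS. In KO + PBS 212 of the 509 members lay above the 95th percentile of UMIs of their library, against 12 of 133 in WT and 0 of 4 in KO. Median mitochondrial shares were 0.75% in WT members, 0.94% in KO members and 0.73% in KO + PBS members, against 0.80%, 0.79% and 0.97% in the other barcodes. Nuclear-retained RNA was higher in WT and KO + PBS members. Malat1 stood at 23699 CPM in WT members against 10127 in the other barcodes, and at 44125 against 11075 in KO + PBS. Neat1, another nuclear RNA, stood at 687 against 190 and at 1146 against 307. In the 4 KO members Malat1 stood at 4695 CPM (3424 to 6282, 45 UMIs) against 5798. In the 469 KO barcodes both RNAs were close to the other barcodes, Malat1 at 6857 against 5794 and Neat1 at 501 against 466. The part of nuclear RNA content in the differences described here was not tested.

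The transporter genes that chose the members are described first, on the same CPM scale. Slc5a1 (GRCm38 chr5:33104219-33162870, plus strand) reached 549 CPM in WT members (481.5 to 624) against 37.9 in the other barcodes, and 1350 (1290 to 1413) against 75.6 in KO + PBS. Slc1a1 (chr19:28835049-28913960, plus strand) reached 575 against 50.004 CPM in WT and 918 against 51.6 in KO + PBS. Slc6a14 (chrX:21714896-21742355, plus strand) stood at 428 against 41.8 CPM and at 1091 against 98.5. Slc5a8 (chr10:88885992-88929515, plus strand) stood at 123 against 23.0 CPM in WT and 317 against 27.8 in KO + PBS. All 4 stood above the rest of their library, as the choice of members requires in sum. Slc5a1 and Slc6a14 each overlap a gene model on the same strand (Gm15936 and Gm25553), so some of their UMIs may have been assigned or discarded by the counting.

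Of the immune genes in the rule, Cd274 (chr19:29367455-29388095, plus strand) stood at 484 CPM in WT members against 29.7 and at 1367 against 116 in KO + PBS. Cxcl2 (chr5:90903871-90905938, plus strand) was rare in WT, with 18 UMIs in 133 members or 41.9 against 0.540 CPM, and stood at 313 against 7.05 in KO + PBS. Slfn4 (chr11:83175186-83190216, plus strand) had 11 UMIs in WT members, 25.6 against 3.01 CPM, and reached 596 against 38.0 in KO + PBS. The kinase gene Frk (chr10:34483399-34611278, plus strand) stood at 298 against 21.3 CPM in WT and 674 against 43.6 in KO + PBS. Plekhs1 (chr19:56461640-56486752, plus strand) stood at 421 against 23.8 and 748 against 50.7. Cxcl2 had a UMI in 7.52% of WT members and 13.4% of KO + PBS members. Without Slfn4, Cd274 and Cxcl2 in the rule 89 barcodes were chosen in WT, against 133, and 461 in KO + PBS, against 509.

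The proximal promoters of the gene pair that names the class, and of the chemokine gene of the rule, are shown so that the regulatory sequence of a transporter and of 2 immune genes of the rule can be read beside their values. Slc5a1 and Cd274 both had a UMI in 55.6% of WT members and 82.5% of KO + PBS members, which the rule partly sets, and Slc5a1 and Cxcl2 in 6.02% and 12.8%. Each run holds 250 bases before and 50 bases after the transcription start (RefSeq, GRCm38.p6, plus strand): Slc5a1 at chr5:33103969-33104268, Cd274 at chr19:29367188-29367487 and Cxcl2 at chr5:90903649-90903948. Capitals mark a match to any of 6 motifs searched on both strands.
Slc5a1: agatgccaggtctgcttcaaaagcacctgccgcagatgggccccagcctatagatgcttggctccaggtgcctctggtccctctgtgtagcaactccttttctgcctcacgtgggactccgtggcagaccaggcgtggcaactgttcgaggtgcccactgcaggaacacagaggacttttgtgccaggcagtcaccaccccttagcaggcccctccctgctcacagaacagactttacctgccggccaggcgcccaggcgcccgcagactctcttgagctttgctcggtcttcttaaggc
Cd274: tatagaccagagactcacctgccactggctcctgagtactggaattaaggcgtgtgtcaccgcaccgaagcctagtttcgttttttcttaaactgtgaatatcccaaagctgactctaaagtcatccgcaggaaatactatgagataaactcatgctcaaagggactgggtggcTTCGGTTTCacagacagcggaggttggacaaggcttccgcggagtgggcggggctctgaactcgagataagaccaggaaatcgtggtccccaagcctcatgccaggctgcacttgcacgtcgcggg
Cxcl2: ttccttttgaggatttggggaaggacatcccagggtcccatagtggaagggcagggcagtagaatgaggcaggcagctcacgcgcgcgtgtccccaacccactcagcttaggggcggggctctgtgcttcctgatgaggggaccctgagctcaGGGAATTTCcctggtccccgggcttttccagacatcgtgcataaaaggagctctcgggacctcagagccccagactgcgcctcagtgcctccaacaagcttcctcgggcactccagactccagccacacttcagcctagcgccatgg
The motifs were the letters of a kappaB site (GGGANTTNC), an interferon-stimulated response element (GAAANNGAA), a STAT site (TTCNNNGAA), an AP-1 site (TGANTCA), a grainyhead site (AACCNGTT) and an ETS site (AGGAAGT), and matches of different motifs may overlap. The kappaB letters occurred at Cxcl2 and Frk and in 4.26% of 32851 mouse promoter windows, and the interferon element at Cd274 and in 8.56%. With 1 more base (a closing C and a closing A) the kappaB letters were left at Cxcl2 alone of the 9 genes (1.20% of all windows) and the interferon element at none (3.44%). The Slc5a1 window held none of the 6 motifs. Elsewhere in the rule, the AP-1 letters (7.81% of all windows) occurred at Slfn4 and Slc6a14, the ETS letters (9.35%) at Slfn4 and Plekhs1, and the grainyhead letters (2.09%) at Plekhs1. A letter match is a description and does not show a bound site.

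Shares of barcodes with a UMI are partly set by the rule, which asks for 4 of the 9 genes, and are given as a description. Slc5a1 had a UMI in 78.2% of WT members (70.2 to 84.9) and 92.3% of KO + PBS members, against 9.11% and 10.4% of the other barcodes. Cd274 had one in 73.7% and 89.8% of members against 7.21% and 15.7%. For comparison, 1613 WT barcodes rich in markers of keratocytes, the collagen-making stromal cells, had Slc5a1 in 9.24% and Cd274 in 6.57%, at a median of 2636 UMIs. Barcodes with at least 1000 UMIs were also thinned to 1000, and shallower ones were left out. Among the other barcodes this left out 219 of 96414 in WT and 13810 of 111390 in KO + PBS. The expected share with Slc5a1 was then 40.8% in WT members, 3.70% in the other barcodes and 3.51% in keratocyte marker-rich barcodes. In KO 167 keratocyte marker-rich barcodes had Slc5a1 in 13.2%, against 15.3% of the other barcodes, and in KO + PBS 13 such barcodes had it in 23.1% (5.04 to 53.8), against 10.4%. Those 13 had a median of 3642 UMIs against 1444. After thinning the shares were 4.84% against 5.13% in KO and 9.16% against 6.95% in KO + PBS. Barcodes that reached 4 times the library share of the rule genes were left out of the keratocyte sets. Krt12 was in 100% of the keratocyte marker-rich barcodes of each library, so these may hold RNA of more than 1 cell type, and the part of free RNA in the shares was not tested. Slfn4 had a UMI in 6.02% of WT members and in 50.9% of KO + PBS members, against 0.774% and 5.43% of the other barcodes.

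Each of the 9 genes was left out in turn and barcodes were chosen by the other 8. The 9 were picked from these same data as genes found together, so the levels of the left-out gene are a description and no independent support. In WT, where this left 96 to 134 barcodes per gene, all 9 left-out genes stood above the other barcodes with intervals that did not overlap. Cd274 stood at 351 CPM against 29.9 (11.8-fold), Plekhs1 at 261 against 24.1 (10.8-fold) and Slc5a1 at 387 (324 to 458) against 38.1 (10.1-fold). The weakest was Slc5a8, at 49.5 CPM (31.4 to 74.3) against 23.1, 2.15-fold. At 16 times the share, with 15 to 26 WT barcodes per gene, 6 of 9 stood above, and the intervals of Slc5a8 (44.6 CPM, 12.2 to 114), Slfn4 (2 UMIs) and Cxcl2 (1 UMI) overlapped those of the other barcodes. In KO + PBS, with 467 to 523 barcodes per gene, all 9 stood above again, from 9.58-fold for Slc5a8 to 40.5-fold for Cxcl2. Slc5a1 stood there at 1204 against 76.9 CPM (15.7-fold) and Cd274 at 1194 against 116 (10.3-fold).

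**Figure D1:**
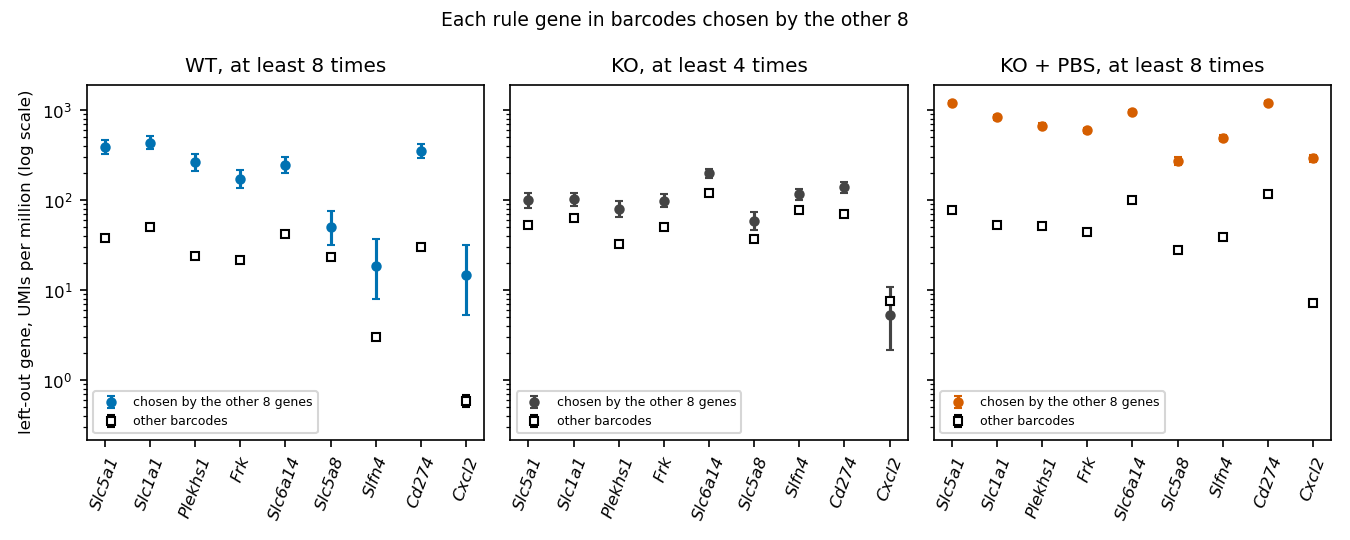
Level of each of the 9 rule genes (CPM, log scale) in barcodes chosen by the other 8 genes (filled circles) and in the other barcodes (open squares), with exact 95% Poisson intervals, for WT and KO + PBS at 8 times the library share and for KO at 4 times. All 9 circles lie above the squares in WT and KO + PBS, and 8 of 9 in KO at its lower threshold.

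In KO the same choice at 8 times left 1 to 17 barcodes per gene, and none of the 9 genes had an interval above that of the other barcodes. At 4 times it left 412 to 511 barcodes, and 8 of 9 genes stood above, by 1.48 to 2.47-fold. The exception was Cxcl2, with 7 UMIs and a ratio of 0.703. At matched thresholds of 4 times the median fold was 1.66 in KO, 5.32 in WT and 9.50 in KO + PBS, and these differences were not tested.

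Beyond the rule, members were compared with the other barcodes of their own library over all genes. A gene was called higher or lower at a difference of at least 2-fold with intervals that did not overlap, given 10 UMIs in, or expected in, the members. Of 5348 genes 8.06% were higher and 2.51% lower in WT members. Of 12229 genes 6.58% were higher and 5.32% lower in KO + PBS members. Of 160 genes that could be measured in the 4 KO members 16.9% were higher and 4.38% lower, and of 10470 genes in the 469 KO barcodes 0.793% and 0.506%. Outside the rule 5298 genes were measured in both WT and KO + PBS. Of these 421 were higher and 133 lower in WT, and 537 higher and 93 lower in KO + PBS. The number higher in both was 356, 84.6% of the WT calls and 66.3% of the KO + PBS calls, and 6 were lower in both. A gene high in members could reach the minimum through the members' own UMIs. With the minimum set on the other barcodes alone, calls over all genes were 224 higher and 134 lower in WT, against 431 and 134. In KO + PBS they were 661 and 650, against 805 and 650. Of those 356 genes 345 could be measured in the 469 KO barcodes: 326 had a ratio above 1, 37 passed the size rule and the median log2 ratio was 0.43. The members were chosen on these libraries, so the counts describe them and support nothing about them.

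Outside the rule 10 genes were called higher in all 3 libraries, the 4 KO members included, and none lower in all 3. In KO 6 of the 10 reached the minimum of 10 UMIs through the members' own counts. In the 469 KO barcodes 3 of the 10 were higher (Pglyrp1, Asprv1 and Cnfn), and the other 7 had folds of 1.26 to 1.87. They were Gm9573, Plet1, Muc4, Pglyrp1, Asprv1, Emp1, Isg15, Cnfn, Fth1 and Gsto1. Plet1, a surface protein gene of epithelia, stood at 2197 CPM in WT members against 493, at 3339 (2284 to 4713, 32 UMIs) against 660 in KO and at 5296 against 857 in KO + PBS. Pglyrp1, a secreted protein that binds bacterial peptidoglycan, stood at 2453 against 550, 2608 (25 UMIs) against 517 and 3404 against 1027. Asprv1, an aspartic protease of the outer epidermis, stood at 14797 against 4293, 6260 (60 UMIs) against 1287 and 9047 against 2843. Gm9573, a mucin-type gene listed in RefSeq with the synonym Muc21, stood at 719 against 138, 1043 (10 UMIs) against 229 and 2356 against 361.

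The 25 leading genes outside the rule, ranked by the lower of the WT and KO + PBS ratios, were 6.73 to 38.9-fold higher in WT members and 7.03 to 19.8-fold in KO + PBS members. In WT 17 of the 25 reached the minimum of 10 UMIs through the members' own counts, so that they could enter only by being high there, and the same held for 2 in KO + PBS. The other 8 of WT were Prss22, Prss8, Lpin2, Lce3a, Itgam, Clic5, Txnrd1 and Hbegf, with folds of 6.76 to 18.4. Serine proteases were among them: Prss22 stood at 794 CPM in WT members against 74.8 and at 2692 against 267 in KO + PBS, and Prss8, which encodes the membrane-anchored protease prostasin that activates the epithelial sodium channel, at 205 against 26.3 and 344 against 42.6. Their relative Prss27, just outside the 25, stood at 1010 against 137 and at 2049 against 319. Late cornified envelope genes of the Lce3 family, whose proteins belong to the hardened shell of surface keratinocytes, were next. Lce3a stood at 1618 CPM (1500 to 1743) in WT members against 87.8 and at 2250 against 302 in KO + PBS. Lce3b stood at 74.5 against 1.91 and 100.5 against 11.5, and Lce3f at 51.2 against 3.80 and 145 against 15.7.

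Genes of inflammation and of its restraint were also among the 25. Tnf, the cytokine, had 16 UMIs in WT members (37.2 against 1.39 CPM) and stood at 195 against 14.8 in KO + PBS. Tnfaip3, whose product A20 switches NF-kB signalling off, stood at 27.9 against 2.95 and 243 against 25.1. Zfp36, or tristetraprolin, which destroys cytokine messages, stood at 133 against 17.8 and 566 against 59.8. Hbegf, a ligand of the EGF receptor, stood at 403 against 59.6 CPM and 689 against 70.7, and Errfi1, an inhibitor of that receptor, at 170 against 23.2 and 536 against 60.4.

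Genes of redox balance, lipid metabolism, the cytoskeleton and ion channels were among the 25 as well. Txnrd1, thioredoxin reductase, stood at 223.5 CPM in WT members against 27.3 and at 487 against 69.2 in KO + PBS. Chac1, which breaks down glutathione, stood at 188.5 against 20.8 and 559 against 57.1. Lpin2, a phosphatidate phosphatase, stood at 491 against 63.6 and 526 against 63.6, and Krt23, a type I keratin, at 137 against 14.6 and 197 against 25.1. Clic5, of the chloride intracellular channel family, stood at 328 against 46.7 and 674 against 91.5, and the acid phosphatase gene Acpp at 170 against 20.8 and 261 against 22.6. In the 469 KO barcodes 22 of the 25 genes could be measured, all 22 had a ratio above 1 and 11 were called higher, among them Lce3a at 183 against 38.3 CPM and Prss22 at 169 against 53.8. The plot of leading genes shows KO at a lower threshold than the other libraries, and the genes were ranked on WT and KO + PBS, so the distances are not compared between libraries.

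**Figure D2:**
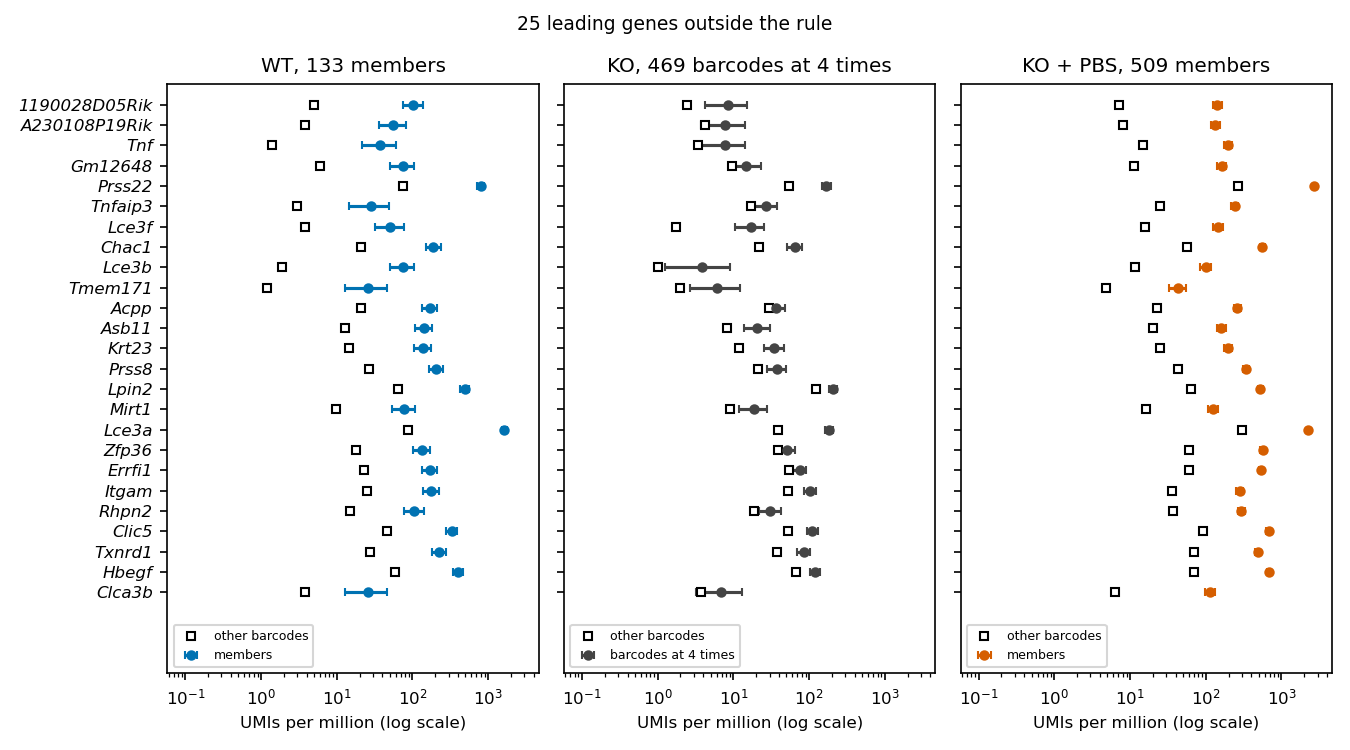
Level of the 25 leading genes outside the rule (CPM, log scale) in the 133 WT members, the 469 KO barcodes at 4 times the library share and the 509 KO + PBS members (circles with exact 95% Poisson intervals), and in the other barcodes (open squares). Every circle lies above its square in WT and KO + PBS, by 6.73 to 38.9-fold and 7.03 to 19.8-fold.

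Gene lists were then counted with a stricter minimum, so that a gene could not enter through its member UMIs alone: at least 10 UMIs had to be expected in the members at the level of the other barcodes, which takes 23.3 CPM there in WT and 7.18 CPM in KO + PBS. Without the rule genes 4.61% of 4755 genes were higher in WT members under this minimum and 2.82% lower. The shares were 5.46% and 5.44% of 11953 genes in KO + PBS, and 0.389% and 0.528% of 10038 genes in the 469 KO barcodes. The lists were chosen with earlier results of these data known, so their counts are descriptions. The counts below leave out the rule genes.

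Of membrane mucin and junction genes 7 of 15 were higher in WT members and 11 of 19 in KO + PBS members, and none was lower. Their median log2 ratio was 0.89 in WT and 1.41 in KO + PBS, against -0.18 and -0.38 over all genes. Muc4, a large membrane mucin of the ocular surface, stood at 1394 CPM in WT members against 326 and at 2445 against 357 in KO + PBS. Muc20 stood at 86.1 against 24.2 and 210 against 39.3. Muc1, below the stricter minimum in WT, stood at 62.8 against 22.4 and 556 against 90.7, and the claudin gene Cldn23 at 203 against 40.7 and 388 against 41.9. Tjp1, the scaffold ZO-1 of tight junctions, stood at 205 against 101 and 488 against 149. In the 469 KO barcodes 1 of 19 was higher, Muc1 at 92.4 against 37.2 CPM.

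NF-kB and cytokine genes outside the rule were higher for 3 of 3 measured genes in WT and 12 of 24 in KO + PBS, with a median log2 ratio of 0.90 in KO + PBS. In WT the 3 were regulators of NF-kB itself. Nfkbia, the inhibitor I kappa B alpha, stood at 156 CPM against 53.6 in WT members and 465 against 89.5 in KO + PBS. Nfkbiz, a nuclear relative that switches on secondary response genes, stood at 179 against 40.8 and 587 against 70.3, and Nfkb1 at 74.5 against 32.1 and 210 against 83.4. Among the secreted factors Il1f9, which encodes the epithelial cytokine IL-36 gamma, stood at 163 against 15.8 in WT and 336 against 51.4 in KO + PBS. Il1a stood at 25.6 against 6.49 and 145 against 12.5. Both were below the stricter minimum in WT and are counted in KO + PBS alone. Cxcl1, a neutrophil chemokine like Cxcl2, had no UMI in WT members, where a count of 0 allows 3 UMIs, and 112 UMIs in KO + PBS members (80.4 against 6.56 CPM). In the 469 KO barcodes 0 of 24 genes of the list were higher.

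Of solute transport genes beyond the rule 4 of 15 were higher in WT members and 6 of 32 in KO + PBS, with a median log2 ratio of 0.22 and -0.33. Among the 469 KO barcodes 1 of 28 was higher, the anion exchanger gene Slc26a4, and the median log2 ratio of the list was 0.06. The 4 of WT were also higher in KO + PBS. Slc28a3, a concentrative nucleoside transporter, stood at 130 CPM against 34.5 in WT and 345 against 37.5 in KO + PBS, and Slc34a2, a sodium-phosphate cotransporter, at 105 against 28.4 and 186 against 27.7. Slc12a2, the chloride-loading cotransporter NKCC1, stood at 254 against 102 and 630 against 165. Sgk1, a kinase that raises the activity of epithelial ion channels, stood at 263 against 118 and 530 against 200. Over all genes of the Slc series except those of the rule, under the first minimum, 9 of 53 measured were higher and 1 lower in WT, where 8.06% and 2.51% of all genes were. In KO + PBS 20 of 214 were higher and 13 lower, where 6.58% and 5.32% of all genes were. They included Slc39a4, a zinc importer (74.5 against 9.15 and 220 against 33.3), Slc13a2, a citrate transporter (48.9 against 7.43 and 86.9 against 8.10), and Slc11a2, the iron transporter DMT1 (44.2 against 14.4 and 116 against 33.9). Each of these lay below 23.3 CPM in the other WT barcodes. In WT they thus reached the first minimum only through the members' own UMIs, which that minimum allows for any gene counted there. Most measured solute carriers were thus not called in either direction.

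Interferon and antigen presentation genes were higher for 4 of 14 in WT and 5 of 38 in KO + PBS, and for 0 of 38 in the 469 KO barcodes. Irf1, a transcription factor induced by interferon, stood at 335 CPM against 85.0 in WT members and 759 against 201 in KO + PBS. Isg15, a ubiquitin-like interferon-induced protein, stood at 824 against 256 and 2845 against 1127, and Rsad2, the antiviral enzyme viperin, at 95.4 against 7.12 and 367 against 77.4. Rsad2 was below the stricter minimum in WT and is not among the 4 there. Ligands of immune checkpoints other than Cd274 were higher for 0 of 4 in WT and 3 of 12 in KO + PBS, among them Ceacam1 at 283 against 66.2 CPM (58.2 against 22.4 in WT, below the stricter minimum). The KO barcodes at 4 times had 0 of 11 higher and 1 lower. Of Src kinase and EGF receptor pathway genes 2 of 9 were higher in WT, 5 of 17 in KO + PBS and 0 of 17 in the 469 KO barcodes. They included Lyn, a Src-family kinase, at 172 against 37.8 and 442 against 94.9. Of transcription factors 2 of 19 were higher in WT, 6 of 24 in KO + PBS and 0 of 24 in the KO barcodes, with the epithelial ETS factor Elf3 at 780 against 228 and 1451 against 250.

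**Figure D3:**
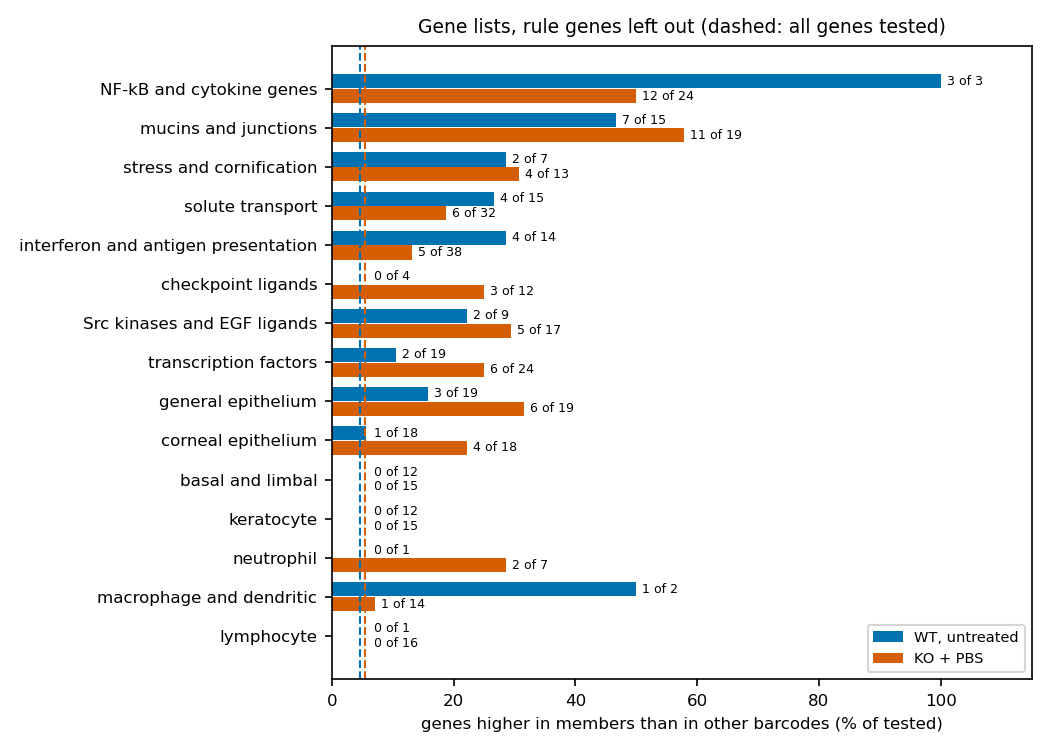
Percentage of measured genes of each list that were called higher in members than in the other barcodes, rule genes left out, for WT and KO + PBS, with the numbers beside the bars; dashed lines give the same percentage over all genes, 4.61% in WT and 5.46% in KO + PBS. NF-kB and cytokine genes (3 of 3 and 12 of 24) and mucin and junction genes (7 of 15 and 11 of 19) stand above the lines in both libraries. So do stress and cornification, solute transport, interferon and antigen presentation, Src kinases and EGF ligands, and transcription factors. The same holds for general epithelium, corneal epithelium, and macrophage and dendritic genes. Checkpoint ligands and neutrophil genes do so in KO + PBS alone. Basal, limbal, keratocyte and lymphocyte genes are at 0.

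Whether these barcodes are epithelial nuclei was checked with marker lists. Of general epithelial markers 3 of 19 were higher in WT (Elf3, Prss8 and the keratin gene Krt7 at 251 against 81.5 CPM) and 6 of 19 in KO + PBS, with none lower, and 0 of 19 in the 469 KO barcodes. Other epithelial markers were near the library level. Epcam stood at 182 CPM in WT members against 232 and at 58.2 against 53.5 in KO + PBS, and Krt12 at 22875 against 26127 and 6054 against 6200. Since Krt12 RNA was in nearly every droplet, it does not separate cell types here. Of corneal epithelium markers 1 of 18 was higher in WT and 4 of 18 in KO + PBS, with median log2 ratios of -0.15 and -0.29, and 0 of 18 in the 469 KO barcodes. The gene higher in both was Psca, a surface protein gene, at 9765 against 2938 and 5674 against 2039. Of basal and limbal markers 0 of 12 were higher and 1 lower in WT, and 0 of 15 were higher or lower in KO + PBS and in the KO barcodes. Cdh1, which encodes E-cadherin of epithelial junctions, stood at 37.2 against 59.3 CPM in WT and 113 against 88.4 in KO + PBS. Of stress and cornification genes 2 of 7 were higher in WT and 4 of 13 in KO + PBS, with median log2 ratios of 0.66 and 0.07, and 4 of 18 in the 469 KO barcodes. With some epithelial markers higher and others near or below the library level, the barcodes are called here by their rule genes.

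Of a conjunctival and goblet cell list 3 of 10 were higher in WT (Elf3, Muc4 and Muc20) and 5 of 12 in KO + PBS (these, Muc1 and the keratin gene Krt13), and the mucins among them are also in the barrier list. The 469 KO barcodes had 2 of 13 higher, Muc1 and Sprr2d. The goblet cell genes Muc5ac and Spdef had no UMI in WT members, and 1 and 0 UMIs in KO + PBS members. Of lacrimal gland markers 0 of 1 was higher in WT and 2 of 5 in KO + PBS, Pigr, the carrier of secreted antibodies, at 72.5 against 9.27 CPM and Ltf, lactoferrin, at 238 against 37.6. Ltf stood at 93.1 against 11.1 in WT, where it reached the first minimum through the members' own UMIs, and at 74.7 against 23.1 in the 469 KO barcodes. The part of cells of these types was not tested. Keratocyte markers were higher for 0 of 12 in WT and 0 of 15 in KO + PBS, with summed levels of 6469 against 7689 CPM and 8920 against 14709. Neutrophil markers were higher for 0 of 1 in WT and for 2 of 7 in KO + PBS, where the list summed to 351 CPM in members and 194 in the other barcodes; in WT it summed to 114 against 126. The 2 were S100a9 (84.0 against 32.1 CPM) and the decoy receptor gene Il1r2 (144 against 20.6). Csf3r, a defining receptor of neutrophils, had no UMI in WT members and 8 in KO + PBS members (5.74 against 9.69 CPM). Lymphocyte markers summed to 97.8 against 138 CPM in WT and 284 against 417 in KO + PBS, with 0 of 16 higher and 2 lower in KO + PBS and 0 of 1 higher in WT. Over all genes 5.44% were lower in KO + PBS. Of macrophage and dendritic markers 1 of 2 was higher in WT and 1 of 14 in KO + PBS, with summed levels of 296 against 137 CPM and 1278 against 1548. Under the first minimum 2 of 3 were higher in WT, Itgam and Cd68 (27.9 against 10.1 CPM, 12 UMIs). The gene higher in both libraries was Itgam, at 177 CPM (76 UMIs) against 24.9 in WT and 281 (392 UMIs) against 36.3 in KO + PBS. Itgam encodes CD11b of myeloid cells and overlaps another annotated gene, Gm49368, on the same strand. Ptprc, the pan-leukocyte gene, had 1 UMI in WT members and stood at 69.6 against 99.7 CPM in KO + PBS. Among the 469 KO barcodes none of 15 keratocyte, 5 neutrophil, 14 lymphocyte and 13 macrophage and dendritic markers was higher. Of markers of other cells of the eye, such as vessels, pigment cells and lens, 0 of 8 were higher in WT and 0 of 19 in KO + PBS, with 1 lower.

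At least 3 immune markers were present in 22 of 133 WT members (16.5%), all 4 KO members and 371 of 509 KO + PBS members (72.9%). After thinning to 1000 UMIs the shares were 0% in WT members against 0.603% of the other barcodes, and 26.4% against 28.9% in KO + PBS. Barcodes with fewer than 1000 UMIs were left out of these thinned shares. Without these members 111 were left in WT and 138 in KO + PBS, with 359 genes higher and 105 lower in WT and 605 higher and 396 lower in KO + PBS. Without members above the 95th percentile of UMIs, 121 and 297 were left, with 374 higher and 109 lower and with 647 higher and 569 lower.

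Members differed among themselves in how many of the 9 genes they held. In WT 71 held 4, 34 held 5 and 28 held 6 or more, whereas in KO + PBS 55 held 4, 117 held 5 and 337 held 6 or more. The 25 leading genes, which are outside the rule, summed to 4191 CPM (3903 to 4495) in WT members with 4 rule genes, 5642 with 5 and 8462 (7961 to 8987) with 6 or more, against 575 in the other barcodes. In KO + PBS the sums were 9454, 10598 and 12436 against 1346. The leading genes were picked for their level in these same members, so their distance from the other barcodes is a description. Among members the sums were higher with more rule genes in both libraries. The number of rule genes is a value that the rule used, and the 25 genes were ranked on these same members. The pattern among members is therefore a description too. Median UMIs moved with the number of rule genes too, from 2430 with 4 to 3073.5 with 5 and 4361 with 6 or more in WT and from 1458 to 1959 and 2873 in KO + PBS, and the part of depth in the pattern was not tested.

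**Figure D4:**
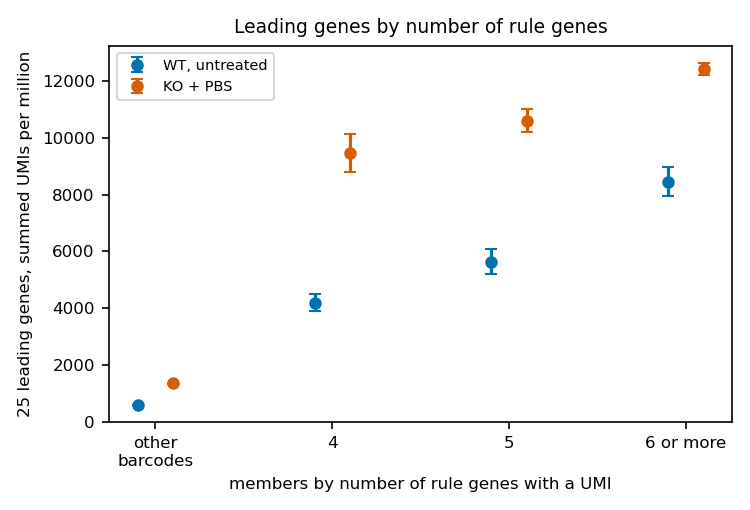
Summed level of the 25 leading genes (CPM, linear axis from 0) in the other barcodes and in members with 4, 5 and 6 or more of the 9 rule genes, for WT and KO + PBS, with exact 95% Poisson intervals. WT rises from 575 in the other barcodes to 8462 and KO + PBS from 1346 to 12436. The split uses values of the rule, and the genes were ranked on these members, so the rise is a description.

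The 68 KO + PBS members with a Cxcl2 UMI differed from the 441 without one in other inflammatory genes. The NF-kB and cytokine list, without Cxcl2, summed to 5473 CPM in members with a Cxcl2 UMI and 2686 in those without. Cxcl1 stood at 366 (291 to 454) against 25.7 CPM (17.3 to 36.6), Nfkbia at 1295 against 305 and Tnf at 397 against 156. Hbegf stood at 1415 against 549 and Tnfaip3 at 500 against 193. Prss22 was near in both, at 2862 (2644 to 3092) and 2660 (2567 to 2755). Median UMIs were 2867 and 2447. In WT 10 members had a Cxcl2 UMI, and the list stood at 954 (639 to 1370) against 892 (802 to 989), with overlapping intervals. Members with a Cxcl2 UMI held more Cxcl1, Nfkbia and Tnf RNA in KO + PBS, and no difference of the list was detectable in WT at 10 barcodes. Cxcl2 is a rule gene whose UMIs count toward membership, so the split uses values of the rule and is a description.

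Members were split by a Slfn4 UMI in the same manner and compared for interferon genes. Slfn4 is a rule gene too, so this split is likewise a description. In KO + PBS the interferon and antigen presentation list summed to 16563 CPM in the 259 members with a Slfn4 UMI and 14827 in the 250 without, against 13206 in the other barcodes. In WT it summed to 7880 (6927 to 8926) in the 8 members with a Slfn4 UMI and 3367 (3189 to 3552) in the 125 without, against 1943 in the other barcodes. The WT figure rests on 8 barcodes from 1 library. The difference between the libraries was not tested.

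KO + PBS and WT members were compared directly for 5387 genes with at least 50 UMIs over both sums. Of these 31.9% were higher and 6.24% lower in KO + PBS members. The KO + PBS member sum was deeper, 1398884 against 431109 UMIs. A gene high in KO + PBS thus reached the minimum at a lower CPM than one high in WT. With the deeper sum thinned to the shallower, 755 genes were higher and 259 lower, with a median log2 ratio of 0.44. In the far deeper sums of the other barcodes 56.9% of 22112 genes were higher and 4.06% lower, and these shares are not comparable with those of members. Relative to the other barcodes, 2.02% of the genes were higher and 1.04% lower in members. Over the same 5387 genes the median log2 ratio was 0.66 in members and 0.65 in the other barcodes, and centring on the median gene turned the split of 1720 higher and 336 lower into 684 higher and 948 lower. A shift in the same direction was thus present in the rest of the library.

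The largest ratios were taken among genes of at least 100 CPM that also stood at least 2-fold above the other barcodes. Both limits were applied only in the members of the library with the higher level. Genes thus entered through the group where they are high, and their ratios are a description. They included known interferon-induced genes. Slfn4, whose level the rule itself used, was 23.3-fold higher in KO + PBS members and 12.6-fold in the other barcodes. Gbp4, a guanylate-binding protein gene that overlaps its paralogs Gbp8 and Gbp9, was 20.4-fold higher in members and 44.4-fold in the others, so that its ratio fell below 1 relative to the other barcodes. Tcte2, which overlaps another gene on the same strand and had 2 UMIs in WT members, stood at 4.66 CPM there and 142 in KO + PBS members, against 4.03 and 26.0 in the other barcodes. Apol9b was 11.7-fold and 6.94-fold higher, AU020206 11.1-fold and 12.3-fold, and Trim30a, an interferon-induced TRIM gene, 10.1-fold and 7.05-fold. Of interferon and antigen presentation genes 33 of 36 were higher in KO + PBS members, but relative to the other barcodes 0 were higher and 4 lower. In the lower direction Defb14, a beta-defensin gene, stood at 33.0 CPM in KO + PBS members against 137 in WT members, 0.24-fold, and at 0.56-fold in the other barcodes.

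Of the rule genes 7 of 9 were higher in KO + PBS members than in WT members, but their levels were set by a threshold that was itself higher in KO + PBS. Relative to the other barcodes 1 of 9 was higher, Slc5a8, while Plekhs1, Cd274 and Cxcl2 had ratios below 1. A few genes outside the rule were higher in members by more than in their library, and are named after their values were seen. Epha2, an ephrin receptor gene, stood at 53.5 CPM in WT members and 337 in KO + PBS members, against 17.5 and 34.0 in the other barcodes. Muc1 stood at 62.8 and 556 against 22.4 and 90.7. Edn1, the endothelin gene, stood at 9.31 and 63.2 against 14.5 and 17.2, and the protease gene Tmprss11g at 219 and 671 against 157 and 154. In WT members 10 UMIs make 23.3 CPM, so the Edn1 level there rests on fewer than 10. Edn1, Epha2 and Muc1 reached the minimum of 50 UMIs over both sums mainly through KO + PBS members, where they are high.

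Relative to their library 1 of 7 stress and cornification genes and 4 of 36 interferon and antigen presentation genes were lower, and none of either list was higher. Some genes lower relative to their library are named here after their values were seen. Lce3a stood at 1618 CPM in WT members and 2250 in KO + PBS members, while the other barcodes went from 87.8 to 302. Crct1, a cornified envelope-linked gene, stood at 289 and 500 against 14.2 and 90.9, and Cnfn, which encodes cornifelin of the cornified envelope, at 244 and 633 against 23.9 and 256. Rsad2 stood at 95.4 and 367 against 7.12 and 77.4, and Tnf at 37.2 and 195 against 1.39 and 14.8. For these genes the gap between members and other barcodes was narrower in KO + PBS than in WT.

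**Figure D5:**
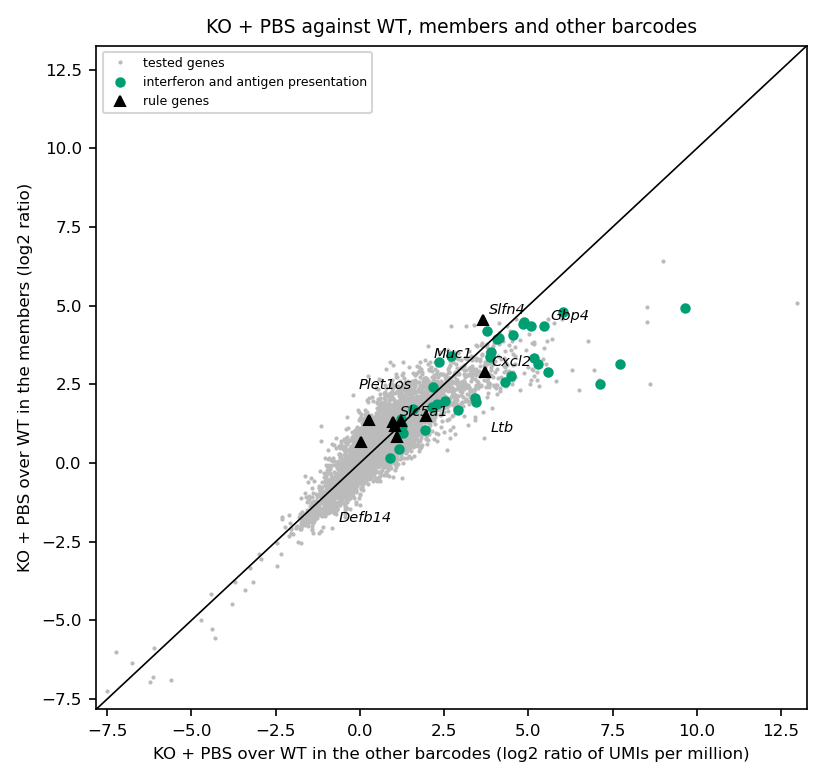
Log2 ratio of KO + PBS over WT for each measured gene in the members (vertical axis) and in the other barcodes (horizontal axis), with interferon and antigen presentation genes as circles, rule genes as triangles and the line of equal ratios. Most genes lie above 0 on both axes; Slfn4 and Muc1 lie above the line of equal ratios and Gbp4 and Defb14 below it.

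WT members were last set beside the WT barcodes most like another epithelial layer, 209 barcodes rich in basal and limbal markers. These were picked at 4 times the library share of their markers, a looser threshold than the 8 times of the members. Any member among them was left out of their sums. This comparison was added after the data were seen and was limited to WT, since KO held 8 such barcodes and KO + PBS 14. Of 3314 genes 7.82% were higher and 3.5% lower in the Slc5a1 and Cd274 barcodes. A gene was measured here with at least 50 UMIs over both sums, and those named had at least 100 CPM on the higher side. Genes could thus enter through the group where they are high, and their ratios are a description. Lce3a stood at 1618 against 37.0 CPM, Crct1 at 289 against 7.995, Cnfn at 244 against 9.99 and Il1f9 at 163 against 10.99. Krt17, a keratin gene of basal and stressed epithelium, was lower at 55.9 against 385. Epcam stood at 182 against 422. Of the 10 genes higher in members of all 3 libraries, Pglyrp1 (2453 against 1803 CPM) and Gsto1 (5712 against 3330) were not called here. Krt15 (2398 against 18169) and Gpha2 (135 against 902) were lower too, but chose the basal set. Globin RNA of red cells was also lower, Hbb-bs at 18.6 against 231 CPM, and its part in the comparison was not tested.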

How the data were processed

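Single-nucleus RNA of whole mouse cornea was measured in 3 libraries, 1 per group, made with the 10x Genomics 3' chemistry per the labels' protocols. The deposited files give raw UMI counts (integers, with no normalization by the authors), made with Cell Ranger 7.0.1 on mm10 per the submitters' processing notes. The annotation, the barcode filter and the treatment of introns are not given in the sources used here. No doublet caller was run.

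Counts were summed over members and over the other passing barcodes of each library, on 30406 gene IDs common to the 3 lists (99.6%, 99.6% and 99.3% of UMIs), and divided by their total (CPM). Members per library numbered 133, 4 and 509 with 431109, 9611 and 1398884 UMIs. Intervals are exact 95% Poisson intervals for CPM and Clopper-Pearson intervals for shares. Counts below 3 were set to 3 in folds. A gene was called at 2-fold with intervals that did not overlap, with at least 10 UMIs in or expected in the members, or 50 over both libraries. Named genes were to be higher in all 3 libraries; with 4 KO members that left 10, so the 25 leading genes were taken from those higher in WT and KO + PBS, which was decided after values were seen. The largest ratios between libraries were limited to genes of at least 100 CPM in the members of the library with the higher level, and there at least 2-fold above the other barcodes. KO members were not compared with those of other libraries.

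The members and gene lists were chosen with earlier results of these data known. The size rule for members against other barcodes was tested on simulated Poisson counts. These hold counting error alone, and apart from thinning no other step was tested on made-up counts. Alternatives changed the rule, thresholds, depth, doublet handling, scaling and minimum. Promoters and positions are from RefSeq GRCm38.p6 and GENCODE M21 (9 of 9 rule genes and 21 of 25 leading genes matched a promoter). Computation used SciPy 1.17.1, NumPy 2.4.6 and pandas 2.3.3 under Python 3.11.15, with plots by matplotlib 3.10.9.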

Additional observations from a re-analysis of the deposited data

Results flagged for a closer look

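Arfgef2, which encodes an exchange factor of vesicle trafficking, was called in opposite directions in WT and KO + PBS under the first minimum. In WT members it stood at 37.2 CPM (16 UMIs) against 17.4 in the other barcodes, a log2 ratio of 1.10. The stricter minimum takes 23.3 CPM in the other WT barcodes, so the gene entered there only through its member UMIs. Under that minimum it has no WT call. In KO + PBS members it stood at 20.8 CPM (29 UMIs) against 42.0, a log2 ratio of -1.01. The difference between the libraries was not tested, and it was the only gene outside the rule with opposite calls in these libraries.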

How the results depend on the processing

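With 1 library per group, replicates could not be left out. No paired analysis was possible because each group has 1 library. Member numbers (WT, KO, KO + PBS: 133, 4 and 509) moved with the rule. They were 381, 469 and 1105 at 4 times the library share; 22, 0 and 95 at 16 times; 228 in WT with at least 3 rule genes; 62 in WT and 2 in KO with at least 5; 24 in WT and 14 in KO with the mean share of the libraries as reference; 2 in KO with at least 1000 genes; and 19 in WT and 27 in KO after thinning to 1000 UMIs. Without members of high UMI totals KO + PBS kept 297, and without those with immune markers KO kept 0 and KO + PBS 138.

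WT genes higher (431) numbered 267 at 16 times, 272 with the mean reference, 156 thinned, 125 at 4-fold and 224 with the minimum set on the other barcodes; WT genes lower (134) numbered 53, 56, 26 and 4 under the first 4 of these and 71 when centred on the median gene. Centring gave 498 genes higher in WT, and 1153 higher in KO + PBS with 112 lower, against 805 and 650; it shifted the ratios by 0.11 and 0.37 on the log2 scale. KO + PBS genes lower numbered 277 at 4 times, 396 without members with immune markers and 24 at 4-fold, where 311 were higher. KO genes higher (27) numbered 83 at 4 times, 98 with the mean reference, 56 without Slfn4, Cd274 and Cxcl2 in the rule, 97 thinned, 9 at 4-fold, 191 without a minimum and 8 with the minimum on the other barcodes. KO genes lower (7) numbered 53 at 4 times, 11 without the immune genes, 18 thinned and 0 at 4-fold. In the choice by the other 8 genes, 8 of 9 KO genes were above at 4 times, against 0.

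Between KO + PBS and WT members (1720 higher, 336 lower) the calls were 3654 higher at 4 times, 280 and 102 at 16 times, 521 and 184 with the mean reference, 411 and 190 thinned, 783 and 213 without high UMI totals, 493 and 180 without immune markers, 688 and 42 at 4-fold, 684 and 948 centred, 755 higher with the deeper sum thinned, and 109 and 56 relative to the other barcodes. Relative to the other barcodes the log2 ratio turned for genes that included Cd274 (-0.47), Cxcl2 (-0.80), Tnf (-1.03), Rsad2 (-1.50), Gbp4 (-1.13), Cnfn (-2.05) and AU020206 (-0.15), as well as Isg15 (-0.35) and the uncalled Plekhs1 (-0.26), Lce3a (-1.31) and Crct1 (-1.88). The other settings left these counts within 1.5 times. A stricter size rule by construction gives fewer calls. Fewer members did not always give fewer: KO + PBS had 852 genes lower at 16 times with 95 members, against 650 with 509. For settings other than the size rule the cause was not tested.

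The summed UMIs of members were 9611 in KO, 431109 in WT and 1398884 in KO + PBS, and 160, 5348 and 12229 genes could be called. Median UMIs per member were 2288.5, 2891 and 2491. Of NF-kB and cytokine genes 3 could be counted in WT against 24 in KO + PBS.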
